A study of Mus musculus with 4 samples.

Results

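The genes Tmem163, Slc44a5, Cpvl, Gpr56, Cspg5 and Flrt2 were examined for every SOX3 peak around them. They were taken from the study's list of genes whose expression differs between neural progenitor (NP) cells with and without SOX3 and that were given a SOX3 site, and they are 6 of the 22367 protein-coding genes of the mouse annotation (GENCODE vM1). Expression was not analysed here. SOX3 chromatin immunoprecipitation followed by sequencing (ChIP-seq) had been done on 3 biological replicates of NP cells. R1, a mouse embryonic stem cell line, had been kept as a monolayer in N2B27 medium for 4 days to obtain them, and the chromatin was precipitated with an antibody raised against human SOX3 (R&D AF2569). The cells carry their own SOX3 gene, and no deletion, transgene or other treatment is named in the labels. The 3 ChIP samples form 1 group, and the 1 input sample, which had no antibody, had served as the control for peak calling and was not analysed here. Peaks had been called in each replicate on its own, which gave 18816 peaks in replicate 1, 8096 in replicate 2 and 40543 in replicate 3. How deeply each library was sequenced cannot be read from the lists. Replicates 2 and 3 stand closer to each other than to replicate 1: of 7815 overlapping pairs of their peaks in the series, 34.54% began and 36.16% ended at the same base, where the shares for replicate 1 with either of them were 0.9225% to 1.633%. Whether libraries 2 and 3 share material was not tested.

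SOX3 belongs to the SOXB1 group of transcription factors, together with SOX1 and SOX2. These proteins bind DNA through a high mobility group (HMG) box that fits into the minor groove and bends the helix, and they often act at enhancers far from the genes they control. In the nervous system SOXB1 factors are known for keeping progenitors undifferentiated. The 6 genes have different roles. Tmem163 encodes a membrane protein that binds and transports zinc, and Slc44a5 a member of the choline transporter-like family. Cpvl encodes a serine carboxypeptidase-like protein. Gpr56 encodes an adhesion G protein-coupled receptor that is needed for the normal layering of the cerebral cortex. Cspg5 encodes neuroglycan C, a membrane chondroitin sulphate proteoglycan of neural tissue, and Flrt2 a leucine-rich repeat membrane protein that takes part in cell adhesion and axon guidance through UNC5 receptors and latrophilins.

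For each gene, all peaks that overlapped the gene body or the 100 kb to each side of it (its window) were taken, whether or not the study lists them. Peaks of any replicate that overlapped by at least 1 bp were merged into a region, and a region with a peak of each replicate is called a three-replicate region. The study lists 8 sites for the 6 genes. Each of these was a replicate 3 peak that overlapped a replicate 1 peak, so the presence of these replicates at the listed sites follows from the way the genes were chosen and is not a result. The methods of the study say that peaks had to be present in every replicate, but in the deposited lists a site could be listed without a replicate 2 peak. The other peaks and the sequence were not used to list a site. All positions are on mm9.

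The reference sequence is given first for some of the sites that are described below. These are 6 of the 8 listed sites and, for Tmem163 and Cspg5, the unlisted three-replicate region whose lowest score percentile was highest. Each sequence is the stretch shared by all replicates with a peak there, without annotated exon bases and at most 300 bases long. Capitals mark AACAAA or AACAAT (the A form of the SOX word) and GACAAA or GACAAT (the G form) on either strand. A word on the minus strand is seen as its reverse complement, such as TTTGTC for GACAAA. These words lie close to the sequence that HMG boxes of SOX proteins are known to prefer.
Tmem163 listed site, chr1:129472321-129472474, + strand: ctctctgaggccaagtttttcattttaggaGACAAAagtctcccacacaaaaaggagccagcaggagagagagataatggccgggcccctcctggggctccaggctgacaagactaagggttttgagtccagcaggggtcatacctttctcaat
Tmem163 window, promoter of Ccnt2, chr1:129670430-129670729, + strand: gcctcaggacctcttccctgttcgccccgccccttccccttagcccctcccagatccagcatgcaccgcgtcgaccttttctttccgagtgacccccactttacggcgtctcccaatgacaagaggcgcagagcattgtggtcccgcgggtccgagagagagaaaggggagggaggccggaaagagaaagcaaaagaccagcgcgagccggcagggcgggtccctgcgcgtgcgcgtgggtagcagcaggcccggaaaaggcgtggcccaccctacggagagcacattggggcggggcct
Slc44a5 listed site, chr3:153836592-153836752, + strand: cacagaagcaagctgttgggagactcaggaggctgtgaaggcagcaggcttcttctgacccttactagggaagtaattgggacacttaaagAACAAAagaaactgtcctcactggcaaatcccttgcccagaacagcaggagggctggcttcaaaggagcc
Cpvl listed site in the gene, chr6:53860107-53860284, + strand: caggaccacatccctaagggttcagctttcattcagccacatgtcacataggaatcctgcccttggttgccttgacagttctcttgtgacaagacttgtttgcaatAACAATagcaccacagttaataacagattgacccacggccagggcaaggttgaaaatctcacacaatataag
Cpvl listed site upstream, chr6:53984541-53984701, + strand: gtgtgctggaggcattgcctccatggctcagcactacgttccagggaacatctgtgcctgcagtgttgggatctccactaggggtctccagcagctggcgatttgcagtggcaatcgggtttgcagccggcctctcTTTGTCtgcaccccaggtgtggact
Cspg5 window, intron of Smarcc1, chr9:110108658-110108911, + strand: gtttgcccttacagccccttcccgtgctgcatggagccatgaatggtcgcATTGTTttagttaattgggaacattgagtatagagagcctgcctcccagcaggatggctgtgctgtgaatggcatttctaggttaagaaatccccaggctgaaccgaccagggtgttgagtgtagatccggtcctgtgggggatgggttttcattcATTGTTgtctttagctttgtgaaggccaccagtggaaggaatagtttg
Cspg5 listed site in the gene, chr9:110154884-110154975, + strand: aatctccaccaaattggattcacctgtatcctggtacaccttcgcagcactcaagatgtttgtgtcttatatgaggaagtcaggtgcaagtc
Flrt2 listed site, chr12:95662589-95662818, + strand: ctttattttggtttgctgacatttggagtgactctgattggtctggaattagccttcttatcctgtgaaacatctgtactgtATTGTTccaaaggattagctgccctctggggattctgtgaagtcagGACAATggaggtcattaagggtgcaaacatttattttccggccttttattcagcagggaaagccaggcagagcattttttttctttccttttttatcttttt

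Of the 8 stretches, those of Ccnt2 and of the listed site inside Cspg5 held no capital letters, and the other 6 held at least 1 word.

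The 6 windows covered 1.936 Mb and held 52 regions. Of these, 7 were three-replicate regions, 4 had peaks of replicates 1 and 3, 16 had a peak of replicate 1 alone and 25 of replicate 3 alone. In the whole series 5358 of 51271 regions (10.5%) were three-replicate regions, 4.95% had peaks of replicates 1 and 3, 20.71% of replicate 1 alone and 58.74% of replicate 3 alone. All 7 replicate 2 peaks in the windows lay in three-replicate regions, as did 67.3% of replicate 2 peaks in the series. Cspg5 had 3 three-replicate regions in its window, Tmem163 had 2, Cpvl and Gpr56 had 1 each, and Slc44a5 and Flrt2 had 0. The map of the peaks shows that the 7 regions lay inside Tmem163, Cpvl and Gpr56, on both sides of Cspg5 and far upstream of Tmem163. The number depends on replicate 2, which has the shortest list: 11 regions had peaks of both other replicates. With replicate 3 left out, 7 regions had peaks of replicates 1 and 2. At a p-value of 1e-10 or less in each replicate, 3 of the 7 were left.

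**Figure D1:**
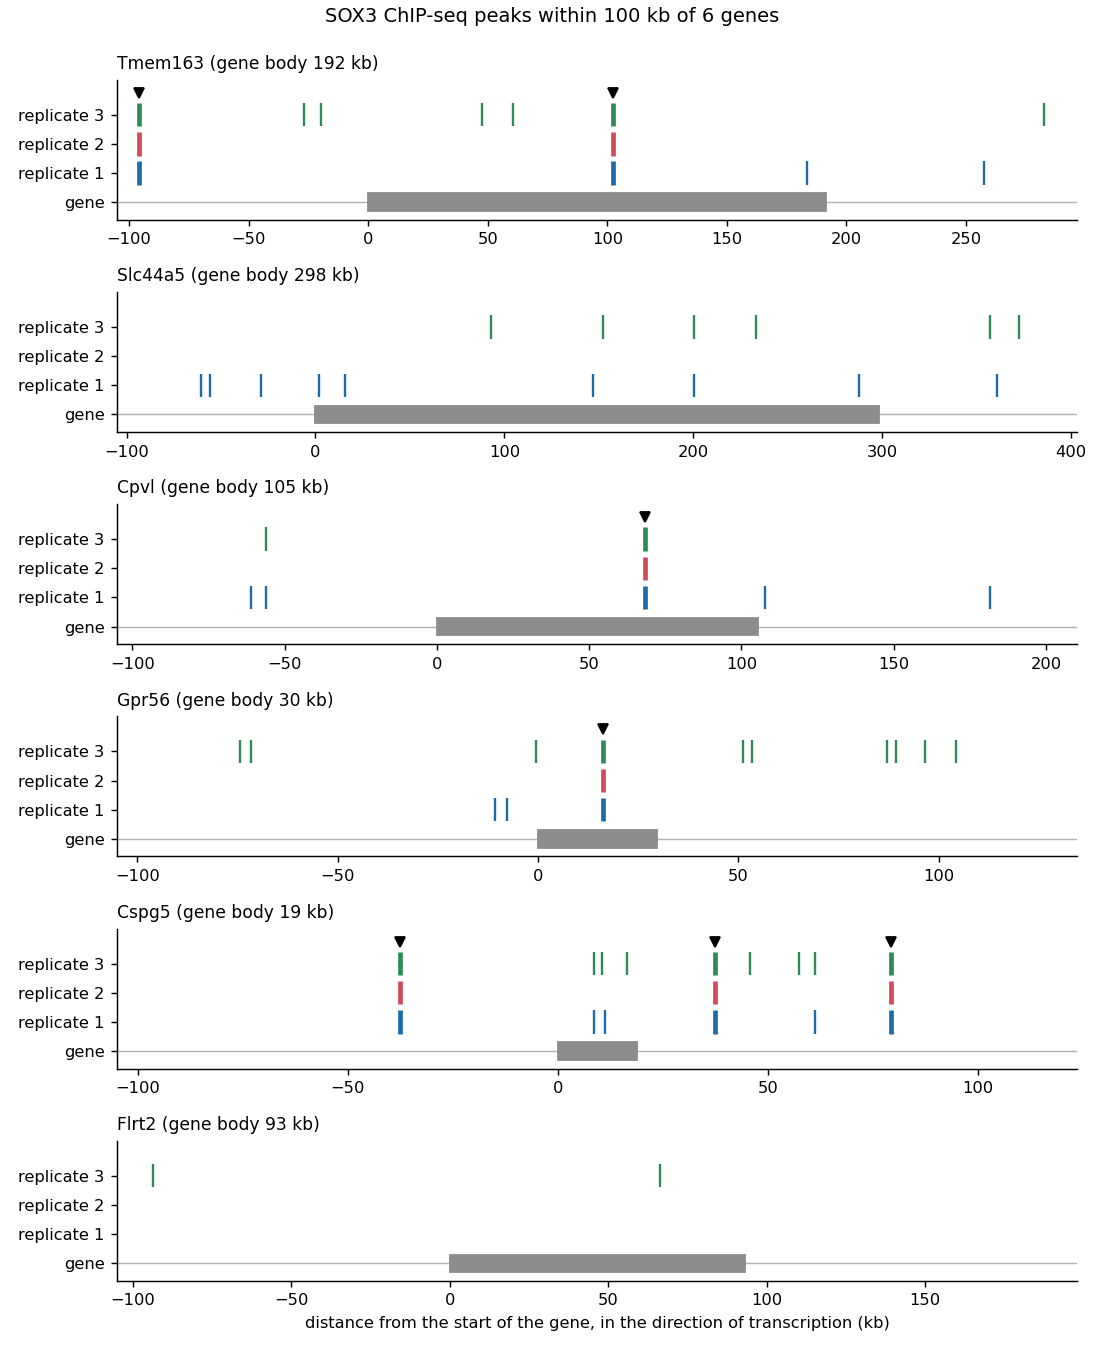
Each panel shows 1 gene, with the distance from its start in the direction of transcription (kb) on the horizontal axis, the gene body as a grey bar and each peak of replicates 1, 2 and 3 as a tick in its own row. Triangles and thick ticks mark the 7 three-replicate regions, of which Cspg5 has 3 and Slc44a5 and Flrt2 have 0.

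A three-replicate region in the window was thus found for 4 of 6 genes, where 42.2% of all protein-coding genes had one. A region with peaks of replicates 1 and 3, which the choice of the genes nearly fixes, was found in the window of 5 of 6, against 55% of all genes. A three-replicate region inside the gene body was found for 3 of 6 (Tmem163, Cpvl and Gpr56), against 8.83% of all genes. These shares are given side by side without a test, because the genes were chosen with a site in view and longer genes have longer windows. The windows ran from 218.8 kb for Cspg5 to 498.3 kb for Slc44a5, and the median window of all genes was 215.4 kb. The median number of three-replicate regions was 1 for the 6 genes and 0 for all genes. The median gap from the gene body to the nearest three-replicate region was 9.297 kb for the 6 genes and 135.5 kb for all genes. The regions inside the 3 gene bodies and the one nearest to Cspg5 are listed sites. The median gap and the counts of genes above are therefore not independent of how the genes were chosen.

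**Figure D2:**
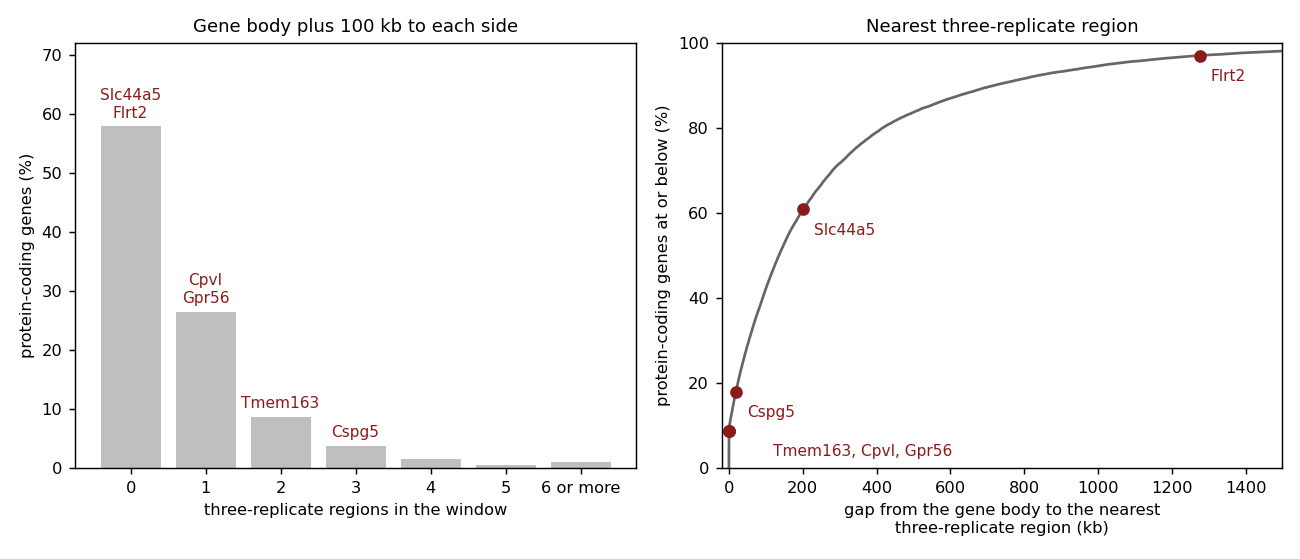
Left, percentage of all 22367 protein-coding genes (vertical axis) by the number of three-replicate regions in the window (horizontal axis), with each of the 6 genes written above its bar; the bar at 0, where Slc44a5 and Flrt2 fall, holds 57.82% of genes, and that at 3, where Cspg5 falls, 3.764%. Right, percentage of genes at or below each gap (kb) between the gene body and the nearest three-replicate region, on which Slc44a5 lies at 201.9 kb and Flrt2 at 1276 kb, and the 3 genes with a region inside lie at 0 kb.

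The peaks in the windows numbered 27 in replicate 1, 7 in replicate 2 and 36 in replicate 3. Per Mb this was 13.94, 3.615 and 18.59 peaks, where the whole genome had 7.354, 3.164 and 15.85, and the listed sites other than that of Flrt2 are part of the first set. By position, 28 of the 52 regions were intronic, 15 intergenic and 9 within 2000 bp of the start of a coding gene, and 0 were exonic. Of all 51271 regions of the series, 27.78% were intronic, 54.67% intergenic, 15.5% near a start and 2.044% exonic, without the choice of windows around genes. The nearest start was that of the gene itself for 26 of 52 regions, and for 4 of 7 three-replicate regions. In all other cases the start of another gene was closer.

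The score of a peak was 10 times the negative log10 of its p-value, and every list starts at a score of 50. A deeper library gives higher scores at the same site, so peaks were compared by their percentile, the share of peaks of the same list with a lower score. In the 7 three-replicate regions the percentile in replicate 1 ran from 36.75 to 89.71, with a median of 80.25. The range was 28.69 to 86.33 in replicate 2 (median 72.33), and in replicate 3 it was 84.46 to 97.47 (median 96.38). The three-replicate regions of the whole series had medians of 82.58, 65.06 and 92.82. The regions of replicate 1 alone ran from 4.858 to 62.61, and those of replicate 3 alone from 4.321 to 87.17. The lists differ in length, and a longer list holds more weak peaks, so a shared site tends to a higher percentile in replicate 3 than in replicate 2. The plot of percentiles is therefore read along each replicate and not between replicates.

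**Figure D3:**
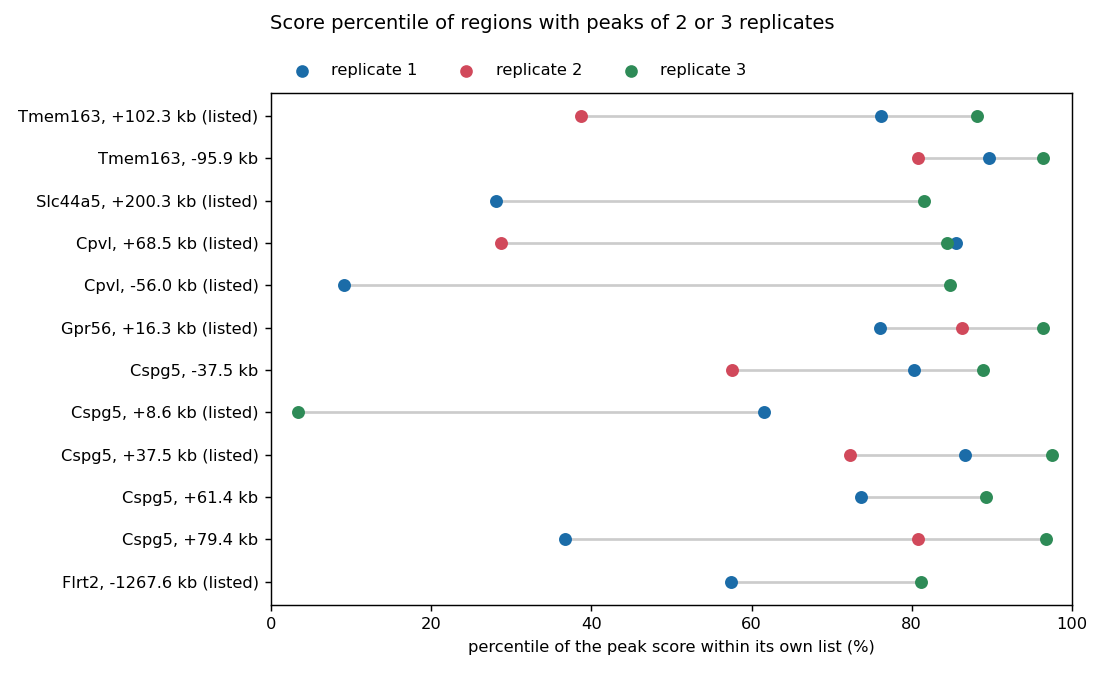
Percentile of the peak score within its own list (horizontal axis, %) for the 11 regions in the windows with peaks of 2 or 3 replicates and the listed site of Flrt2, with 1 point per replicate and the distance from the start of the gene at the left. Lists differ in length, so points are compared within a replicate; replicate 3 lies at 81.18 or higher except at the listed site inside Cspg5, where it lies at 3.394.

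Of the 8 listed sites, 4 had a peak of replicate 2, where 67.1% of all replicate 3 peaks that overlap a replicate 1 peak had one. The 4 were the sites of Tmem163 and Gpr56, the site inside Cpvl and the site downstream of Cspg5. The other 4, without replicate 2, were the sites of Slc44a5 and Flrt2, the site upstream of Cpvl and the site inside Cspg5. The percentiles of the 8 sites in replicate 1 lay between 9.128 and 86.66, and those in replicate 3 between 3.394 and 97.47. At a p-value of 1e-10 or less, 2 of the 8 sites had a replicate 2 peak.

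Tmem163 (ENSMUSG00000026347, chr1:129383123-129574673, minus strand), the zinc-binding membrane protein gene, had 9 regions in its window. The listed site, at chr1:129472163-129472556, lay in intron 2 of 7, an intron of 115846 bp. It was 102.3 kb from the start of the gene and 38.35 kb from the nearest start of a Tmem163 transcript. Its peaks in replicates 1, 2 and 3 scored 142.46, 69.74 and 131.67, and ranked 4490 of 18816, 4966 of 8096 and 4796 of 40543. The percentiles were 76.14, 38.67 and 88.17, so the replicate 2 peak was in the lower part of its own list. The printed stretch has 1 word, GACAAA at chr1:129472351-129472356, which lies 6 bp from the middle of the region.

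A second three-replicate region, which the study does not list for Tmem163, scored higher in every replicate. It lay at chr1:129670340-129670787 and scored 258.89, 164.13 and 304.48, at percentiles of 89.71, 80.84 and 96.38. Among the 7 three-replicate regions it had the highest lowest percentile, but it lay 95.67 kb upstream of Tmem163, just inside the window, and 177.5 bp from the start of Ccnt2, which encodes cyclin T2, a subunit of the elongation factor P-TEFb. Its GC content was 62.95%, above the 45.28% to 53.06% of the other 6 three-replicate regions, and it held neither form of the word. With windows of 50 kb to each side, Tmem163 had 1 three-replicate region, the listed one. The remaining 7 regions were 2 of replicate 1 alone and 5 of replicate 3 alone, the highest at 19.81 kb upstream of the gene with a score of 125.11 (percentile 87.17).

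Slc44a5 (ENSMUSG00000028360, chr3:153636400-153934686, plus strand), the choline transporter-like gene, had the longest window and the most regions (14), but no peak of replicate 2. Its listed site, chr3:153836584-153836875, lay in intron 2 of 21, 200.3 kb from the start of the gene and 48.72 kb from its nearest transcript start. It scored 59.37 in replicate 1 and 101.06 in replicate 3, at percentiles of 28.05 and 81.49. The region held AACAAA in 2 places, 1 of which is in the printed stretch. Replicate 1 had 9 peaks in the window, a number at percentile 95.75 among all genes, with the window length at percentile 97.62. Of these 9 peaks, 8 lay in regions of no other replicate, as did 56.43% of all replicate 1 peaks. The highest of these scored 99.84 (percentile 62.61) and lay 1631.5 bp inside the gene, within the promoter distance of its start. Others lay at the starts of neighbours, 64.5 bp from that of Rabggtb and 31.5 bp from that of Acadm, and a replicate 3 peak lay 128.5 bp from that of Lhx8. They scored 65.49, 52.42 and 55.1, where the lists start at 50, at percentiles of 38.45, 7.005 and 26.31. In 3 of the 14 regions most 50-base sequences occur in more than 1 place in the genome (mostly multi-copy). This held for 8 of the 52 regions in all windows and for 28.88% of the regions of the series. The nearest three-replicate region lay 201.9 kb beyond the end of the gene, at chr3:154136582-154137091.

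Cpvl (ENSMUSG00000052955, chr6:53823373-53928656, minus strand), the carboxypeptidase-like gene, had 5 regions. The listed site inside the gene, chr6:53859999-53860368, lay in intron 11 of 12 and 68.47 kb from the start. It scored 205.46, 61.51 and 111.57 in replicates 1, 2 and 3, at percentiles of 85.47, 28.69 and 84.46. Replicate 2 was therefore near its own threshold, and the region was lost at a p-value of 1e-10 or less. The region held AACAAA and AACAAT, the second in the printed stretch. The other listed site, chr6:53984530-53984835, was intergenic and 56.03 kb upstream of Cpvl, but 4865.5 bp from the start of Chn2, which encodes a chimaerin that acts on the GTPase Rac. It scored 52.8 in replicate 1, close to the threshold of 50, and 113.15 in replicate 3 (percentiles 9.128 and 84.81), and it held AACAAA and GACAAA. A replicate 1 peak of score 58.64 lay 14.5 bp from the start of Chn2. A three-replicate region with scores of 128.19, 171.47 and 306.4 lay just outside the window, 117.5 kb upstream of Cpvl in an intron of Chn2 (chr6:54046175-54046564).

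Gpr56 (ENSMUSG00000031785, chr8:97508503-97538090, plus strand), the adhesion receptor gene, had 12 regions, and its listed site was high in all lists. The site lay in intron 1 of 13 and 16.25 kb from the start. It scored 141.76, 205.88 and 307.26 in replicates 1, 2 and 3, at percentiles of 75.98, 86.33 and 96.43 and ranks of 4520, 1107 and 1448. It was the listed site with the highest lowest percentile. The other 11 regions had a peak of 1 replicate, 2 of replicate 1 and 9 of replicate 3. One of replicate 3, with a score of 71.94 (percentile 63.0), lay 597 bp upstream of the start of Gpr56. The scores of the 9 ran from 50.55 to 121.9, with a median of 61.96. The window also overlapped the adhesion receptor gene Gpr97, for which the three-replicate region counts as well.

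Cspg5 (ENSMUSG00000032482, chr9:110146287-110165079, plus strand), the neuroglycan C gene, had 10 regions in the shortest of the windows, 3 of them three-replicate regions, none inside the gene. The listed site downstream was intergenic, 37.51 kb from the start of Cspg5 and 18721.5 bp from its end. It scored 218.47, 126.43 and 393.2, at percentiles of 86.66, 72.33 and 97.47, and its replicate 3 peak (rank 1026) was the highest of that list in all windows. The start of 2610002I17Rik was nearer, at 23895.5 bp.

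The listed site inside Cspg5, chr9:110154796-110155056, lay in intron 3 of 4 and 8.639 kb from the start. It scored 97.08 in replicate 1 (percentile 61.52) and 50.47 in replicate 3 (percentile 3.394, rank 39147 of 40543), with no peak of replicate 2. All of its 50-base sequences (100%) occur in more than 1 place, and a search of the genome with its printed stretch found 2715 other places with at least 80% identity over at least 80 bp, of which 23 had a peak of any replicate, 4 peaks of replicates 1 and 3, and 0 peaks of all replicates. Of the 10 regions around Cspg5, 4 were mostly multi-copy, and 3 of those lay in the gene. How far reads from other copies contributed to these peaks was not tested. For the other 7 printed stretches the search found 0 other places.

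The unlisted three-replicate regions around Cspg5 were 2 in number. That at chr9:110108556-110108955 was in intron 24 of 27 of Smarcc1, which encodes a core subunit of the BAF chromatin remodelling complex, and 37.53 kb upstream of Cspg5, whose start was the nearest. It scored 163.03, 93.18 and 137.75 (percentiles 80.25, 57.55 and 88.88) and held AACAAT in 2 places on the minus strand. That at chr9:110225542-110225861 was intergenic and 79.41 kb downstream of the start of Cspg5, and 10090.5 bp from the start of Scap, which encodes the escort protein of the sterol-regulated SREBP factors. It scored 64.35, 164.02 and 333.04, at percentiles of 36.75, 80.81 and 96.78, and the replicate 1 peak was in the lower part of its own list. A region of replicates 1 and 3, with scores of 132.43 and 140.95, lay 55 bp from the start of 2610002I17Rik.

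Flrt2 (ENSMUSG00000047414, chr12:96930436-97023425, plus strand), the adhesion and guidance gene, had 2 regions in its window, both of replicate 3 alone. One lay 93.57 kb upstream with a score of 72.03 (percentile 63.18). The other lay in intron 1 of 1 of the transcript used, with a score of 70.55 (percentile 61.18), and 72.52% of its 50-base sequences occur in more than 1 place. The listed site lies outside the window. Its merged region lay at chr12:95662523-95663100, 1268 kb upstream of the start of Flrt2. The region scored 88.75 at most in replicate 1, which had 2 peaks there, and 100.14 in replicate 3 (percentiles 57.49 and 81.18). The nearest coding start to the site was that of Gm9726, at 495981.5 bp. The merged region held AACAAT in 1 place and the G form in 3. The listed peak itself, chr12:95662523-95662885, held AACAAT in 1 place and the G form in 2. The nearest three-replicate region to Flrt2, at chr12:98299566-98300008, lay 1276 kb away on the other side, a gap at percentile 96.98 among all genes. The name of a bound gene thus rests, for Flrt2, on a site outside the window, and within 100 kb of the gene 0 peaks of replicates 1 and 2 were found.

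The words were then compared with the rest of the series. Of the 7 three-replicate regions, 4 held the A form or the G form, where 78.2% of the 5356 three-replicate regions of the series that could be searched did. The A form was in 3 of 7 (62.83% in the series) and the G form in 2 of 7 (48.53%). The regions without either were the promoter of Ccnt2 and the 2 regions downstream of Cspg5. Of the regions of 1 or 2 replicates in the windows, 15 of 45 held a word, where 45.87% of such regions in the series did. Of the 8 listed sites, 6 held a word, all except those of Cspg5. No share over all replicate 3 peaks that overlap a replicate 1 peak is set beside this count. The octamer of POU factors, ATGCAAAT or ATGCTAAT, was in 0 of 7 three-replicate regions and 0 of 8 listed sites, where 11.6% of three-replicate regions of the series held it. The joined SOX/POU word was in 0 of 7, against 6.983%. The plot of word positions shows that words lay within 50 bp of the middle in the regions of Tmem163, Slc44a5, Cpvl and Smarcc1. None lay so close to the middle of the merged region at the listed site of Flrt2. A word is a match of letters and not a measured binding site.

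**Figure D4:**
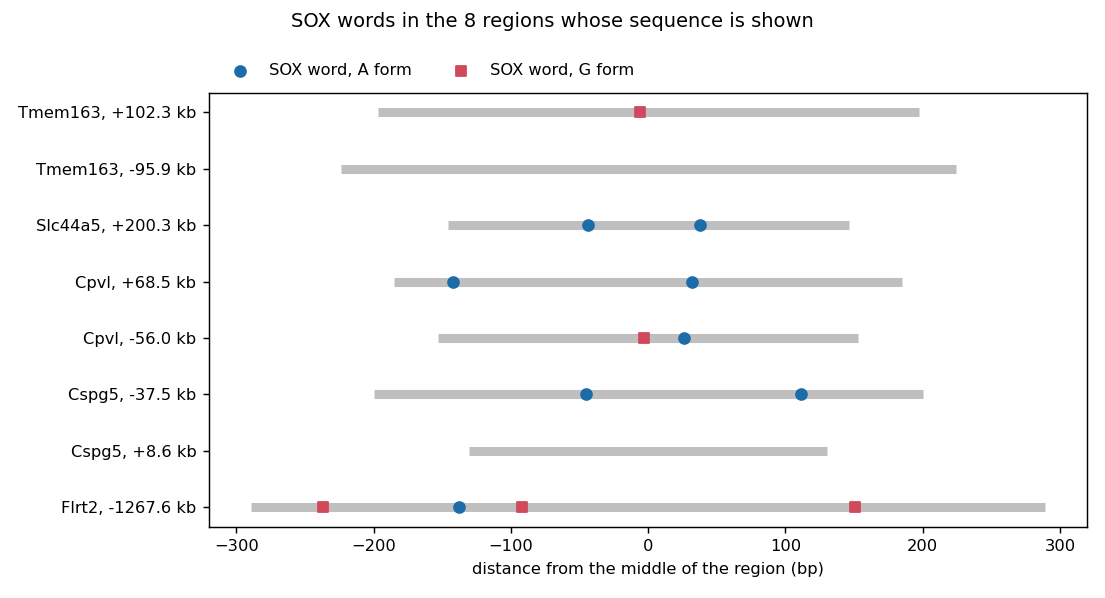
Position of the A form (circles) and the G form (squares) of the SOX word, as the distance from the middle of the region along the plus strand (bp, horizontal axis), in the 8 regions whose sequence is given; grey bars are the merged regions, and labels give the distance from the start of the gene. The promoter of Ccnt2 (Tmem163, upstream) and the listed site inside Cspg5 hold 0 words, and the merged region at the listed site of Flrt2 holds 4.

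Genes related to the 6 by family or function were looked at in the same way. Of 36 such genes, 20 had a three-replicate region in the window and 6 in the gene body, where 42.2% and 8.83% of all protein-coding genes had one. The lists are short, and no list was tested against these shares. Among the FLRT family and its partners (10 genes) the window held a region for 6, and the body for 2, Lphn3 (2 regions), a latrophilin, and Fgfr1 (1 region), a fibroblast growth factor receptor. Flrt3 had 1 region in its window and Flrt1 had 0. Of the neural chondroitin sulphate proteoglycans (6 genes), 4 had a region in the window, and Ptprz1 (2 regions) and Ncan (1 region), which encodes neurocan, in the body. Both serine carboxypeptidase genes, Ctsa and Scpep1, had 1 region in the body. Among the neighbours and partners of GPR56 (6 genes) the window held a region for 4, which include Gpr97 with the same region as Gpr56 itself, and Col3a1, which encodes the collagen that GPR56 binds. Of the choline transporter-like genes, 2 of 4 had a region in the window, and of the zinc transporters 2 of 8, none of either in the body.

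At the 6 genes there were 7 overlapping pairs of a replicate 2 and a replicate 3 peak. Of these, 3 had the same start and 1 other had the same end, at the promoter of Ccnt2. The 7 pairs of replicates 1 and 2 and the 13 of replicates 1 and 3 had 0 of either.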

How the data were processed

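The authors aligned the ChIP-seq reads of 3 replicates to mm9 with Bowtie 1.0.0 (submitters' processing notes) and used MACS to call the peaks of each replicate over the input, keeping those with a p-value of 1e-05 or less. The deposited score is the negative log10 of this p-value multiplied by 10, as MACS gives it, and the authors state no normalization between replicates. The depth of the libraries is not given in the sources used here, so scores were compared only within a list, and no reads were counted and no peaks called again.

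Overlapping peaks (at least 1 bp) were merged into regions, and windows of 100 kb to each side of the GENCODE vM1 gene were applied to all 22367 protein-coding genes on NCBIM37, the assembly of mm9. Words were searched on both strands of the merged region. A region was mostly multi-copy when more than 50% of its 50-base sequences occur in more than 1 place, and printed sequences were searched for similar places with blastn 2.17.0 (at least 80% identity over at least 80 bp, e-value of 1e-10 or less). Named were all 6 genes, the listed sites, every three-replicate region with its nearest gene, the highest other region of each gene, and from each list of related genes those with most regions in the gene body. Neighbouring genes at peaks of 1 or 2 replicates, peaks near the starts of the genes, the regions beyond the windows, and Flrt1, Flrt3, Gpr97 and Col3a1 were named in addition, after their values were seen. Some sequences, positions and genes that the rule would name are not reported here. The genes and lists were chosen with earlier results of these data known. No test was made, since there is 1 group of samples, and the main counts are given beside the same counts over all genes or regions. Alternatives were other window sizes, a stricter p-value (1e-10 or less), the 8096 highest peaks of each list, a reciprocal overlap of 50%, midpoints within 300 bp, the stretch common to all lists, words in the 200 bp around the middle, another SOX word (ACAA followed by A or T and then A or G), removal of mostly multi-copy regions and removal of each replicate. The procedure was checked on simulated data. Versions were matplotlib 3.10.9, numba 0.67.0, scipy 1.17.1 and numpy 2.4.6, under Python 3.11.15.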

Additional observations from a re-analysis of the deposited data

How the results depend on the processing

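The number of genes with a three-replicate region in the window, 4 of 6, ran from 3 to 5 under the alternatives. The 7 three-replicate regions became 3 in the gene body alone, 4 with 20 kb to each side, 12 with 200 kb to each side and 3 at a p-value of 1e-10 or less, and ran from 7 to 11 with 1 replicate left out (11 without replicate 2). The 4 with a SOX word became 7 with 200 kb and 1 at 1e-10, and ran from 4 to 6 with 1 replicate left out. Listed sites with a replicate 2 peak fell from 4 to 2 at 1e-10. The share of all genes, 42.2%, was 8.83% in the gene body, 18.5%, 28.8% and 60.6% with 20, 50 and 200 kb, 23.5% at 1e-10, 33.2% with equal numbers of peaks, 39.7% with a reciprocal overlap of 50%, 37.6% without mostly multi-copy regions, and 42.9% to 55.0% with 1 replicate left out. Midpoints within 300 bp and the stretch common to all lists each left 7 regions and 4 genes. In the 200 bp around the middle 4 regions held a word, and 5 held the other SOX word. Listed sites could not be recounted without replicate 2, and windows do not bear on them. Without counts, peaks near the threshold of a shallow library could be missing at unknown depth. No paired analysis was possible because only 1 group of samples has peaks.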
